A study of Mus musculus with 4 samples.

Results

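A set of 10 genes of vascular smooth muscle was examined in the mouse aorta: the ion channel genes Kcnmb1, Kcnma1, Cacna1c, Kcnj8, Abcc9 and Kcna5 and the cGMP pathway genes Gucy1a1, Gucy1b1, Prkg1 and Pde5a. They were chosen by gene symbol, as all probe sets that the platform annotation assigns to 1 of these genes and no other. This gave 24 of the 45101 probe sets of the Affymetrix array. All 10 genes passed the filter on low intensity that left 11718 genes, through 22 of their probe sets, and the other 2, both of Kcnma1, lay below it. RNA from aorta was hybridised to 4 arrays, 1 for each of 4 groups of mice. B6 mice, the controls, were C57BL/6 apoE-/- animals, which lack apolipoprotein E, a protein that clears lipoproteins from blood, and carry the label atherosclerosis. Ath29 mice are congenic, with C57BL/6 given as their strain and resistance to the disease given as their state, and whether they too are apoE-/- is not stated. Mice of each strain were weaned to chow at 3 weeks of age and at 4 weeks either stayed on chow or were moved to a Western diet for 2 weeks. The labels do not say how many mice an array represents. With 1 array per group no single difference has a replicate check, so the values below describe 4 arrays.

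Smooth muscle tone follows the calcium that enters through the L-type channel, whose pore is encoded by Cacna1c. Potassium channels oppose this entry by making the membrane potential more negative: the large-conductance calcium-activated BK channel (pore Kcnma1, regulatory beta subunit Kcnmb1), the ATP-sensitive KATP channel (pore Kcnj8, sulfonylurea receptor Abcc9) and the voltage-gated channel Kcna5. Nitric oxide from the endothelium binds soluble guanylate cyclase, a dimer of the products of Gucy1a1 and Gucy1b1, and the cGMP it makes activates the kinase encoded by Prkg1, which relaxes the muscle, until the phosphodiesterase encoded by Pde5a breaks cGMP down.

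In 2 cases the subunits of 1 protein are encoded side by side: no protein-coding gene lies between Kcnj8 and Abcc9 on chromosome 6, or between Gucy1a1 and Gucy1b1 on chromosome 3, in the RefSeq gene order of GRCm38.p6. Cacna1c and Kcna5 also lie on chromosome 6 and Pde5a on chromosome 3, while Kcnmb1 is on chromosome 11, Kcnma1 on 14 and Prkg1 on 19. None lies on chromosome 9, where the Ath29 locus is. The 250 bases before a RefSeq start of these paired genes and of Kcnmb1 are printed to set the subunits of each pair side by side. Kcnmb1 had the widest spread over the arrays on the probe set read for each gene. The GC box GGGCGG, on either strand, is in capitals.
Kcnmb1 promoter, chr11:33962763-33963012, plus strand: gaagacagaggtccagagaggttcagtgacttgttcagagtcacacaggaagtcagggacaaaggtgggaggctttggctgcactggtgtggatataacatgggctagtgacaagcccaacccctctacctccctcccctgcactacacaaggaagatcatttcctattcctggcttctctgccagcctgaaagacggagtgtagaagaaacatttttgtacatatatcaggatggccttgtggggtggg
Kcnj8 promoter, chr6:142571615-142571864, minus strand: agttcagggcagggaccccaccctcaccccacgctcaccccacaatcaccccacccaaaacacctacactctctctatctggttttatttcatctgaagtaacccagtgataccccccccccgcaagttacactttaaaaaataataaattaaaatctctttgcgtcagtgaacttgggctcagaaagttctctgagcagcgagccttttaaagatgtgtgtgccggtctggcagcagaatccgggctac
Abcc9 promoter, chr6:142702275-142702524, minus strand: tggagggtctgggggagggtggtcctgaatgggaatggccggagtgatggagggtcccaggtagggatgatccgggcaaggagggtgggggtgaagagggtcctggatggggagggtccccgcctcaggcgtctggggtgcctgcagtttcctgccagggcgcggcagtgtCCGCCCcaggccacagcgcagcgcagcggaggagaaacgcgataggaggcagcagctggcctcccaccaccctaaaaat
Gucy1a1 promoter, chr3:82145651-82145900, minus strand: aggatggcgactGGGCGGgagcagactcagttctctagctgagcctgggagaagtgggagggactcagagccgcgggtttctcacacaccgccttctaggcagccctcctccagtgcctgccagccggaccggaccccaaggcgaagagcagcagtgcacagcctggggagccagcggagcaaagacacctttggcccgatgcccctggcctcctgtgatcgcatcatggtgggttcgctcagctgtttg
Gucy1b1 promoter, chr3:82074712-82074961, minus strand: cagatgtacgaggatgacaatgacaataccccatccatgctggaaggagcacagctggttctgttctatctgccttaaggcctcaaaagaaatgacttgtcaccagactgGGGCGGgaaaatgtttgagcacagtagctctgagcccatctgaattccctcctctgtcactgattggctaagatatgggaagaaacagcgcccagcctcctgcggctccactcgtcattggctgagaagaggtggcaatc
Both cyclase genes and Abcc9 had 1 GC box in the window shown, and Kcnj8 and Kcnmb1 had 0. Gucy1a1 has another RefSeq window, chr3:82145074-82145323, which is not printed and had 0. Over all 14 RefSeq promoter windows of the 10 genes, 8 held a GC box, against 32.7% of 32851 windows of the same length for all genes. A CArG box, the site of serum response factor in many contractile genes, a MEF2 site, or TATAAA was found in 0 of the 14 windows, against 1.47%, 1.69% and 12.4% of all windows. Both strands were searched, and a match or its absence in so short a window describes the letters only.

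The tissue label was checked against markers. All 19 listed markers of contractile smooth muscle passed the filter, and their summed intensity was 75351 on chow and 66304 on Western diet in B6 mice, against 64711 and 69395 in Ath29 mice, led by Acta2, Tpm2 and Cald1. The extraction protocol in the labels names liver. Of 12 listed hepatocyte markers 5 passed: Alb, Apoa2, Fga and Apoh read between 24.7 and 94.0 units, with the filter at a mean of 27.4, and Cyp2e1, which fat also expresses, 2542 and 4852 in B6 and 4559 and 2866 in Ath29 mice. The part of liver RNA was not tested further. Heart muscle markers, 18 of 19 passing, summed to 20041 in B6 Western against 3480 to 5080 on the other 3 arrays, and brown fat markers, 11 of 12, to 12103 and 24117 in B6 mice on chow and Western diet and 18767 and 14965 in Ath29 mice. The actin control's ratio of 3' to middle signal, which grows as RNA is degraded or copied short, was 5.10 and 5.63 in B6 and 10.2 and 7.62 in Ath29 mice. Its ratio of 3' to 5' signal ran in the same order, at 24.4 and 25.4 in B6 and 31.5 and 28.5 in Ath29 mice. The 3' to middle ratio of Gapdh was 9.23 and 9.54 in B6 and 8.87 and 10.6 in Ath29 mice, lowest where that of actin was highest. Each of these moves with groups compared below, and in bulk tissue fewer cells of a type cannot be told apart from less RNA per cell.

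On the probe set read for each gene, that of highest mean, none of the 10 differed by 2-fold between strains or between diets. The widest span of these probe sets over the 4 arrays was 1.76-fold, for Kcnmb1, and the narrowest 1.14-fold, for Abcc9. Among the other probe sets that passed the filter, spans reached 2.29-fold for Kcnma1, on a dim signal, and 1.91-fold for Abcc9. B6 chow held the highest value of 6 genes (Kcnmb1, Kcnma1, Kcnj8, Abcc9, Prkg1 and Pde5a), against 34.9% of all genes, and the lowest value of 0, against 22.6%. B6 Western held the lowest value of 6 genes (Kcnma1, Cacna1c, Kcnj8, Abcc9, Prkg1 and Gucy1a1), against 27.4% of all genes. Ath29 chow held the lowest of Kcnmb1, Pde5a and Gucy1b1, 3 of 10 against 31.8%. Kcna5 ran the other way, highest in B6 Western and lowest in Ath29 Western.

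**Figure D1:**
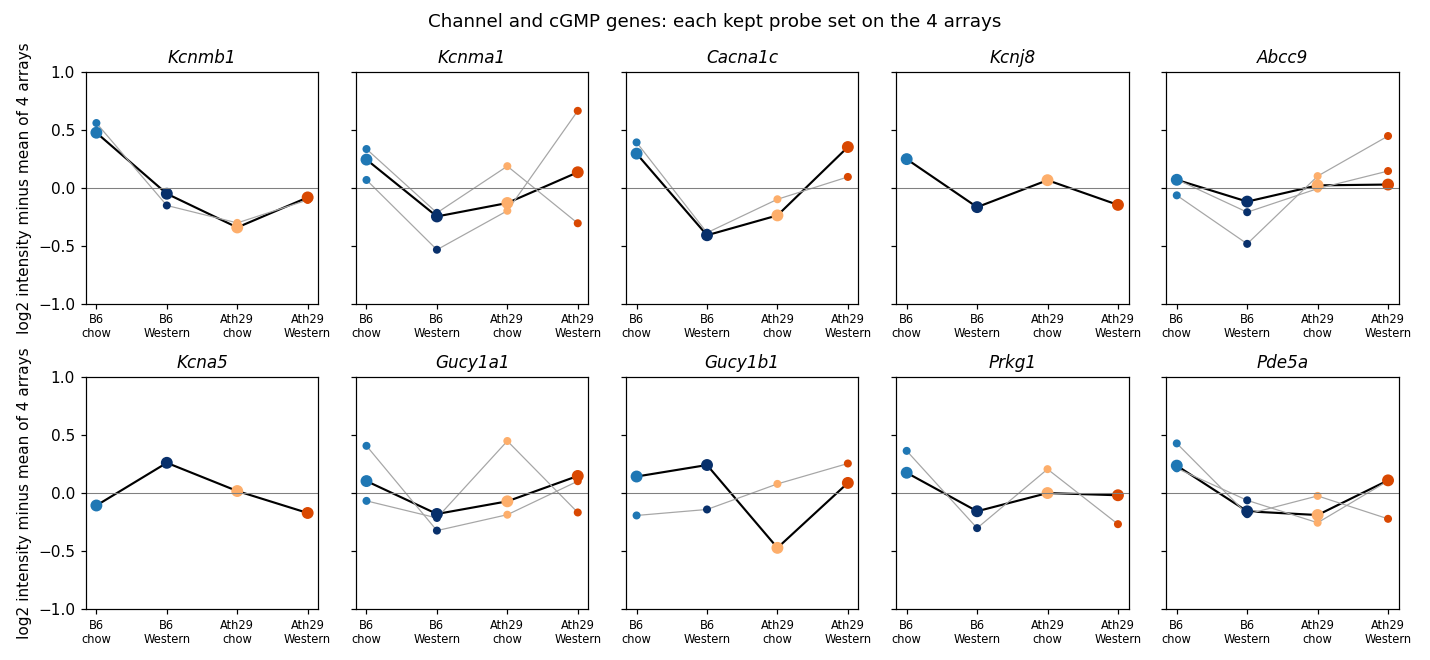
Each panel shows 1 gene, with the log2 intensity of every probe set that passed the filter, minus that probe set's mean over the 4 arrays (vertical axis), for the 4 arrays (horizontal axis). Large points on the black line are the probe set read for the gene and small points on grey lines its other probe sets, and the lines only join points of 1 probe set. Kcnmb1 is highest in B6 chow on both probe sets and Kcna5 is highest in B6 Western. Grey lines depart from the black ones in several panels, among them those of Kcnma1, Gucy1a1 and Gucy1b1.

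Kcnmb1, the beta subunit that raises the calcium sensitivity of the BK channel, read 3129 intensity units on chow and 2174 on Western diet in B6 mice, against 1776 and 2127 in Ath29 mice. Its second probe set read 766 and 468 in B6 and 421 and 484 in Ath29 mice, so B6 chow stood above the other 3 arrays on both, and those 3 lay nearer to each other. On chow, Ath29 was 1.76-fold below B6 (log2 -0.82, and -0.86 on the second probe set), and 3.91% of all genes were as low or lower. On Western diet the strains differed by only -0.03 and 0.05 on the 2 probe sets. Within B6 mice the Western array was 1.44-fold below chow (-0.53, and -0.71), and within Ath29 mice it was 0.26 and 0.20 log2 units above chow.

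Kcnma1, the BK pore, read 235 on chow and 168 on Western diet in B6 mice, against 182 and 218 in Ath29 mice. B6 chow was again the highest and B6 Western the lowest. The 2 other probe sets that passed the filter were dim, between 30.9 and 70.8 units, and did not follow the same course in Ath29 mice: their diet differences there were 0.86 and -0.49, against 0.27 for the probe set read for the gene. One of them gave 1.20 between strains on Western diet, the only value past 2-fold in any of the 4 comparisons among the 22 probe sets that passed the filter. Of the 2 Kcnma1 probe sets below the filter, 1 gave 1.06 there and the other was at the floor on all 4 arrays. The diet difference in B6 mice was alike on all 3, at -0.49, -0.55 and -0.60.

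Cacna1c, the pore of the L-type calcium channel, read 181 on chow and 111 on Western diet in B6 mice, against 125 and 188 in Ath29 mice. B6 chow and Ath29 Western were high, and B6 Western and Ath29 chow low. On Western diet Ath29 was 1.69-fold above B6 (log2 0.76), a value that 2.57% of all genes reached, and on chow it was 0.53 below. The diet difference was -0.70 in B6 and 0.59 in Ath29 mice. The second probe set, at 165 and 96.0 in B6 and 117 and 134 in Ath29 mice, kept both signs of each kind, with -0.49 and 0.48 for strain and -0.78 and 0.19 for diet. The strain difference on Western diet minus that on chow was 1.29 on the first probe set and 0.97 on the second. On the probe sets read, Cacna1c, at 1.29, was the 1 gene of the 10 past 2-fold in this strain by diet difference. Of all genes, 11.7% passed 2-fold in either direction. Among the 22 probe sets that passed the filter 3 were past 2-fold, the others being a dim one of Kcnma1 (1.46) and one of Gucy1a1 (1.02). On the probe sets read 9 of the 10 genes were above 0, all but Kcna5, against 58.8% of all genes. Kcnmb1, Kcnma1, Cacna1c and Pde5a were at least 1.5-fold higher, 4 of 10 against 17.0%. Another Gucy1a1 probe set gave -0.47 in this difference. The 19 contractile smooth muscle markers were all above 0 in it as well, with a median of 0.35, and Myh11, Tpm1 and Myl9 were past 2-fold, at 1.25, 1.22 and 1.08, where 4.95% of all genes were.

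Of the KATP channel genes, Abcc9 had the narrowest span of all 10 on the probe set read for each gene. Kcnj8, the pore, read 398 on chow and 299 on Western diet in B6 mice, against 351 and 303 in Ath29 mice, so both chow arrays lay above both Western arrays, by log2 -0.41 in B6 and -0.21 in Ath29 mice. Abcc9, its sulfonylurea receptor, read 4711 and 4137 in B6 and 4557 and 4578 in Ath29 mice, a span of 0.19 log2 units. Its other 2 probe sets, at most 375 and 183 units, spanned more, with strain differences on Western diet of 0.35 and 0.93 against 0.15. Only B6 Western was lower than the other 3 arrays on all 3 Abcc9 probe sets. The signs of Abcc9 on chow (-0.05) and in Ath29 mice (0.01) turned with the scaling: with quantile normalization the former was 0.03, and with a common 75th percentile the 2 were 0.02 and -0.04.

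Kcna5, a voltage-gated potassium channel that is also expressed in atrial heart muscle, read 628 on chow and 811 on Western diet in B6 mice, against 685 and 601 in Ath29 mice, from its 1 probe set. B6 Western stood above the other 3, and each of its 4 differences had the sign opposite to the median of the 10 genes: for strain 0.12 on chow and -0.43 on Western diet, and for diet 0.37 in B6 and -0.19 in Ath29 mice. The heart muscle and brown fat sums were also highest on the B6 Western array, and their part in this value was not tested.

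The diet differences of the cyclase subunits in B6 mice had different signs, where 56.6% of all genes were below 0. Gucy1a1, the alpha subunit, read 483 on chow and 397 on Western diet in B6 mice, against 428 and 498 in Ath29 mice. Gucy1b1, the heme-binding beta subunit, read 245 and 263 in B6 and 160.2 and 236 in Ath29 mice. Between diets in B6 mice the 3 Gucy1a1 probe sets gave -0.28, -0.73 and -0.15 and the 2 of Gucy1b1 0.10 and 0.05. The SD between the 3 was 0.31, against a median of 0.22 for all genes with at least 2 probe sets. The nearest values of the 2 genes, -0.15 and 0.05, lie close for such a spread. Gucy1b1 was lowest in Ath29 chow, 1.53-fold below B6 chow (log2 -0.62), but its second probe set, at 89.7 and 93.0 in B6 and 108 and 122 in Ath29 mice, gave 0.27 for the same difference. The 3 Gucy1a1 probe sets gave -0.17, -0.59 and 0.52 there. The sign of the strain difference of both cyclase genes on chow thus depended on the probe set.

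Prkg1, the cGMP-dependent kinase, read 2367 on chow and 1881 on Western diet in B6 mice, against 2097 and 2069 in Ath29 mice, and its second probe set 746 and 470.1, and 669 and 481. B6 Western was the lowest on both, with diet differences in B6 mice of -0.33 and -0.67. In Ath29 mice they were -0.02 and -0.47. Pde5a, which hydrolyses cGMP, read 2843 and 2164 in B6 and 2115 and 2603 in Ath29 mice, highest in B6 chow. Its 3 probe sets gave -0.43, -0.47 and -0.45 between strains on chow, the closest spread of any gene here with 3, and -0.39, -0.28 and -0.61 between diets in B6 mice. In Ath29 mice 2 of them gave 0.30 and 0.36 and the third -0.20.

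Compared between strains, 9 of the 10 genes were lower in Ath29 than in B6 mice on chow, Kcna5 being the exception, where 59.0% of all genes were below 0. With quantile normalization, a common 75th percentile or the mean of all probe sets Abcc9 too was above 0. The median log2 difference was -0.28, against -0.08 for all genes. At 2-fold 0 of the 10 differed, where 4.11% of all genes did, and at 1.5-fold Kcnmb1 and Gucy1b1 were lower, where 9.68% of all genes were. Gucy1b1 was under 1.5-fold with each other scaling (-0.57 to -0.52) and with the mean of its probe sets (-0.17). On Western diet 7 of the 10 were above 0, against 50.6% of all genes, and the median was 0.14, against 0.00. At 2-fold 0 differed, against 2.88%, and at 1.5-fold Cacna1c was higher, against 5.61%. Kcnmb1 and Gucy1b1 were below 0 on both diets, against 26.8% of all genes, 0 of the 10 were above 0 on both, against 18.5%, and 8 had opposite signs, against 54.7%. The Western value of Kcnmb1 (-0.03) was 0.09 with quantile normalization and 0.01 with the mean of its probe sets. The second probe set of Gucy1b1 was above 0 on both diets, at 0.27 on chow and 0.40 on Western diet.

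Compared between diets, 8 of the 10 genes were lower on Western diet in B6 mice, all but Kcna5 and Gucy1b1, where 56.6% of all genes were below 0. The median was -0.36, against -0.06 for all genes. At 2-fold 0 differed, against 5.28%, and at 1.5-fold Cacna1c was lower, against 7.13%. In Ath29 mice 7 of the 10 were above 0, against 56.2%, with a median of 0.24 against 0.04. At 2-fold 0 differed, against 2.18%, and at 1.5-fold Cacna1c was higher, against 6.03%, but not with any other scaling (0.53 to 0.58) or with the mean of its probe sets (0.39). Kcnj8 and Prkg1 were below 0 in both strains, against 19.7% of all genes, Gucy1b1 above 0 in both, against 19.3%, and 7 had opposite signs, against 60.9%. Each strain difference shares 1 array with each diet difference, so the 4 sets of values are not independent.

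**Figure D2:**
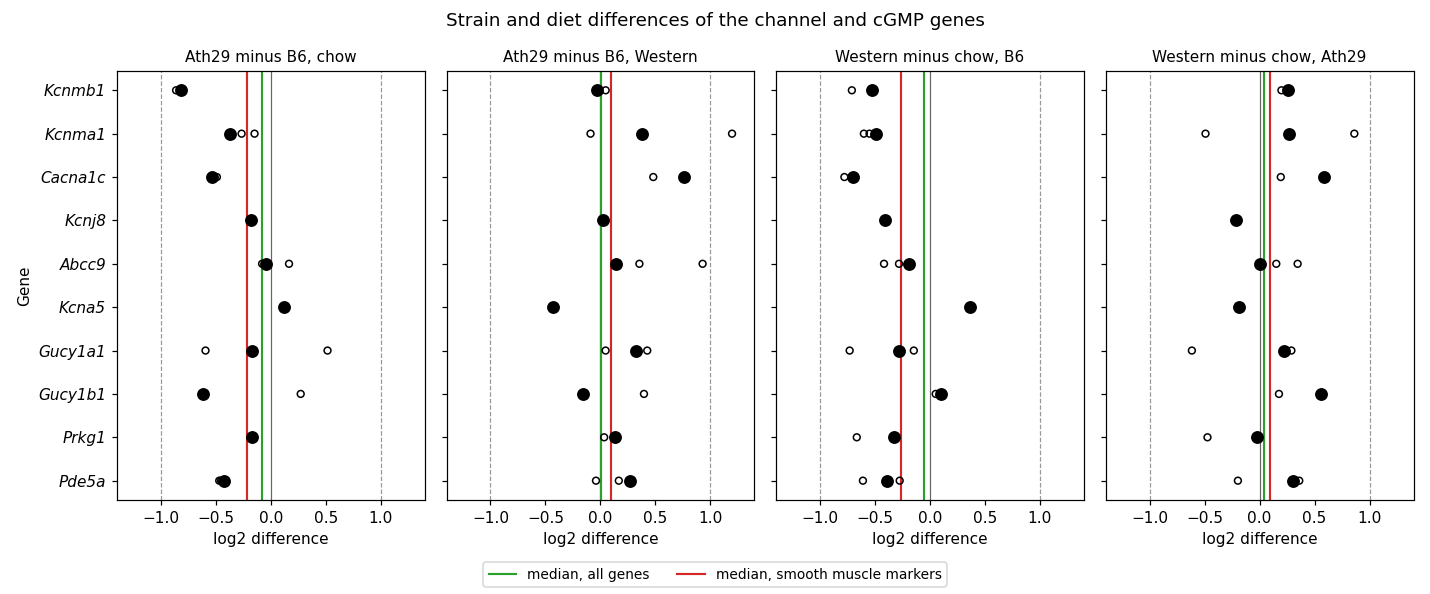
Log2 differences (horizontal axis) of each gene (vertical axis) in the 4 comparisons, with a filled point for the probe set read for the gene and open points for its others. Dashed lines mark 2-fold, the green line the median of all genes and the red line that of the contractile smooth muscle markers. All filled points lie within 2-fold, from -0.82 for Kcnmb1 on chow to 0.76 for Cacna1c on Western diet.

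The additive fit of strain and diet over all 4 arrays (limma, Benjamini-Hochberg adjustment over 11718 genes) leaves the interaction of strain with diet in its error and has 1 residual degree of freedom. It called 0 genes for strain and 0 for diet, or 0% of all genes, with 304 and 291 at an unadjusted p under 0.05. The largest strain effects among the 10 were -0.42 ± 0.29 (SE) for Kcnmb1 and -0.38 ± 0.26 for Gucy1b1, and the largest diet effects 0.33 ± 0.26 for Gucy1b1 and -0.31 ± 0.24 for Kcnj8. Each of the 20 limma adjusted p-values was 1. Effects smaller than the spread of such a fit are not detectable with these arrays.

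Agreement between probe sets gives a second measure of error, though one that covers the measurement and not the mice. Of the 8 genes with at least 2 probe sets passing the filter, all 8 had probe sets of 1 sign between diets in B6 mice, against 54.8% of the 4663 such genes. In the strain differences on chow and Western diet and the diet difference in Ath29 mice, 5, 4 and 5 of the 8 did, against 48.4%, 51.0% and 48.2%. The median SD between probe sets of a gene was 0.07 on chow, 0.20 on Western diet, 0.12 in B6 and 0.29 in Ath29 mice for the 8 genes. It was 0.27, 0.22, 0.22 and 0.21 for all genes. Among the 8 genes the SD ranged from 0.01 to 0.63, 0.06 to 0.65, 0.03 to 0.31 and 0.04 to 0.68 in the same order. The mean of the probe sets of Kcnmb1 between strains on chow was -0.84 ± 0.03 (SD, 2 probe sets of the same RNA), and that of Cacna1c between diets in B6 mice -0.74 ± 0.05. The widest SDs between strains on chow were those of Gucy1b1 (mean -0.17 ± 0.63) and Gucy1a1 (-0.08 ± 0.56).

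The 19 contractile smooth muscle markers had medians of the same signs as the 10 genes: for strain -0.22 on chow and 0.10 on Western diet, and for diet -0.27 in B6 and 0.09 in Ath29 mice. Between strains 19 of 19 were below 0 on chow, against 59.0% of all genes, and 13 above 0 on Western diet, against 50.6%. Between diets 18 were below 0 in B6 mice, against 56.6%, and 17 above 0 in Ath29 mice, against 56.2%. On chow the markers ranged from -1.401 to -0.05, and Tpm1 (-1.401), Myh11 (-1.30) and Myl9 (-1.25) were past 2-fold lower, 3 of 19 against 1.95% of all genes. Kcnmb1, at -0.82, lay within that range, -0.60 from the median. On Western diet the markers ranged from -0.18 to 0.42, and Cacna1c was 0.66 above their median. Against the same 2 medians Prkg1 was 0.04 and 0.04 and Abcc9 0.17 and 0.05. Between diets in B6 mice Kcna5 was 0.63 and Gucy1b1 0.37 above the markers, and Gucy1a1 and Prkg1 -0.02 and -0.07 from them. These distances use the probe set read for each gene. Between diets in B6 mice the other probe sets of Gucy1a1 gave -0.73 and -0.15 and that of Prkg1 -0.67, against the marker median of -0.27. Between strains on Western diet those of Abcc9 gave 0.35 and 0.93, against 0.10. The pericyte list, whose cells also express Kcnj8 and Abcc9, had 7 of 10 genes passing, with sums from 9535 in B6 Western to 10709 in B6 chow, led by Rgs5, Pdgfrb and Notch3, and medians of -0.12, -0.06, -0.20 and 0.08 in the 4 comparisons. Fibroblast markers had medians of -0.16, 0.02, -0.24 and 0.13 in the same order, and brown fat markers 1.06, -0.95, 1.57 and -0.38. Heart muscle markers had -0.36, -3.52, 2.95 and -0.08, white fat markers 0.47, -0.65, 0.77 and -0.34, and macrophage markers 0.33, 0.08, 0.87 and 0.69. The part of cell makeup in the values of the 10 genes was not tested.

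**Figure D3:**
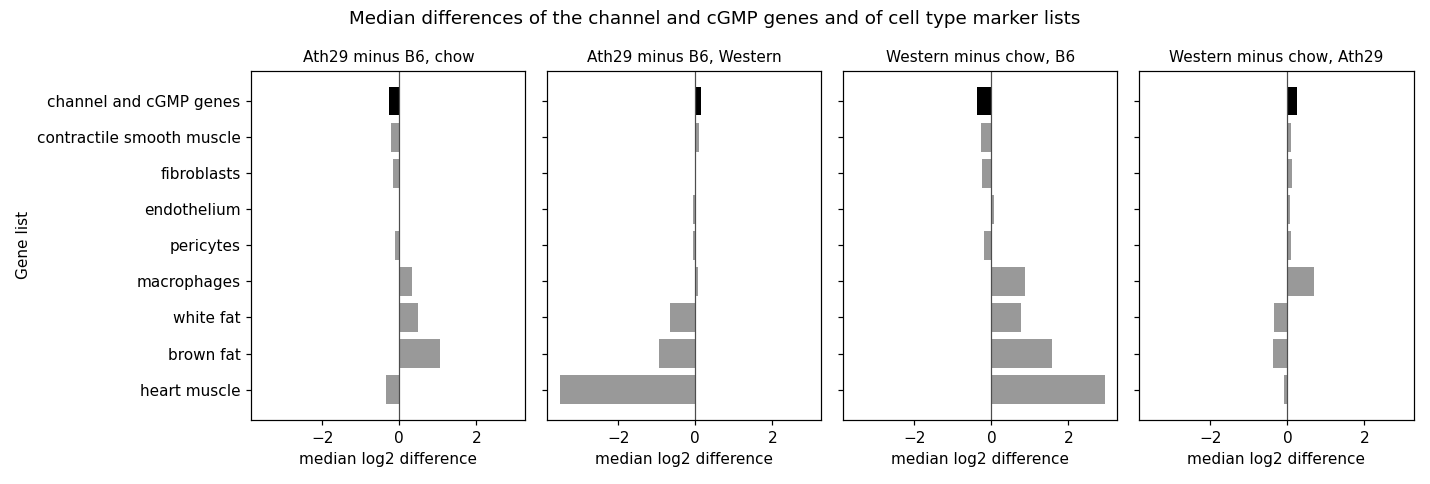
Bars give the median log2 difference (horizontal axis) of the 10 channel and cGMP genes (black) and of 8 cell type marker lists (grey, vertical axis) in the 4 comparisons. The bars of the 10 genes and of smooth muscle markers share a sign in each panel, and the bar of heart muscle markers reaches -3.52 between strains on Western diet.

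Other genes of the same pathways were read from 3 lists, of which 58 genes passed the filter. Their medians for strain were -0.22 on chow and 0.07 on Western diet, and for diet -0.18 in B6 and 0.13 in Ath29 mice, the signs of the 10 genes. At 2-fold, Ath29 mice on chow had 2 of the 58 higher, where 2.16% of all genes were, and 3 lower (1.95%). On Western diet 0 were higher (0.845%) and 4 lower (2.03%). Between diets 3 were higher (4.11%) and 1 lower (1.17%) in B6 mice, and 2 higher (1.33%) and 0 lower (0.853%) in Ath29 mice. Of 24 listed potassium channel genes 11 passed. The ERG channel gene Kcnh2 gave -1.25 and -0.50 between strains, and Kcnn4, the intermediate-conductance calcium-activated channel, 0.35 and 0.95. Kcnj11, the KATP pore of heart and pancreas, gave -0.22 and -0.04. Between diets Kcnn4 gave 0.14 and 0.74, Kcnab2 -0.10 and -0.32 and Kcnh2 -0.75 and -0.0049.

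Of 31 listed calcium and chloride channel, pump and store genes 21 passed. Between strains the sarcoplasmic release channel Ryr2, also on the heart list, gave -0.61 and -0.35, Trpm7 -0.26 and -0.31, the calcium channel Cacna1d 0.54 and 0.23, and Ano1, the calcium-activated chloride channel, -0.87 and -0.17. Between diets the cation channel Trpm4 gave -0.39 and -0.31, Cacnb1 0.56 and 0.23, Trpm7 -0.17 and -0.23 and the inositol trisphosphate receptor Itpr2 0.52 and 0.17. Of 33 listed cGMP pathway genes 26 passed. Pln, the phospholamban that restrains the calcium pump of heart and smooth muscle, was the 1 gene of the 3 lists past 2-fold with 1 sign on chow and on Western diet, at -1.003 and -2.11 in Ath29 against B6 mice, where 0.179% of all genes were that much lower. It read 298 and 980.2 in B6 and 149 and 227 in Ath29 mice, highest in B6 Western, and is itself on the heart list. Npr1, the receptor for atrial natriuretic peptide, gave 0.23 and 0.43 between strains and -0.52 and -0.32 between diets. Ddah1, which degrades an inhibitor of nitric oxide synthase, gave -0.59 and -0.16 between strains, and Ddah2 -0.71 and -0.18. Between diets Ddah1 gave 0.26 and 0.69 and the neuronal synthase Nos1 0.22 and 0.48, and Pln 1.72 and 0.61.

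Other genes of these lists past 2-fold in any of the 4 comparisons were named after their values were seen. The potassium channel gene Kcnk3 and the phosphodiesterase gene Pde2a read highest in B6 Western, at 1074 and 1367, and lowest in B6 chow, at 335 and 530.1, the order also of the brown fat markers at both ends. Kcnk3 gave 1.33 and Pde2a 1.03 between strains on chow, -1.03 and -1.13 on Western diet. Between diets in B6 mice they gave 1.68 and 1.37. Rrad, a small GTPase that inhibits L-type channels, read 514 and 363 in B6 and 166 and 511 in Ath29 mice, lowest in Ath29 chow as Kcnmb1 was, with -1.63 between strains on chow and 1.62 between diets in Ath29 mice. The sodium-calcium exchanger Slc8a1 read 302 and 129 in B6 and 221 and 229 in Ath29 mice, with -1.22 between diets in B6 mice, and the potassium channel Kcnq5 gave 1.01 between diets in Ath29 mice. Cacna1h, a T-type calcium channel, gave -1.06 between strains on Western diet. Cacna1h, Cacnb1 and Nos1 were below the filter on 1 array each, so their values rest on dim signals.

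**Figure D4:**
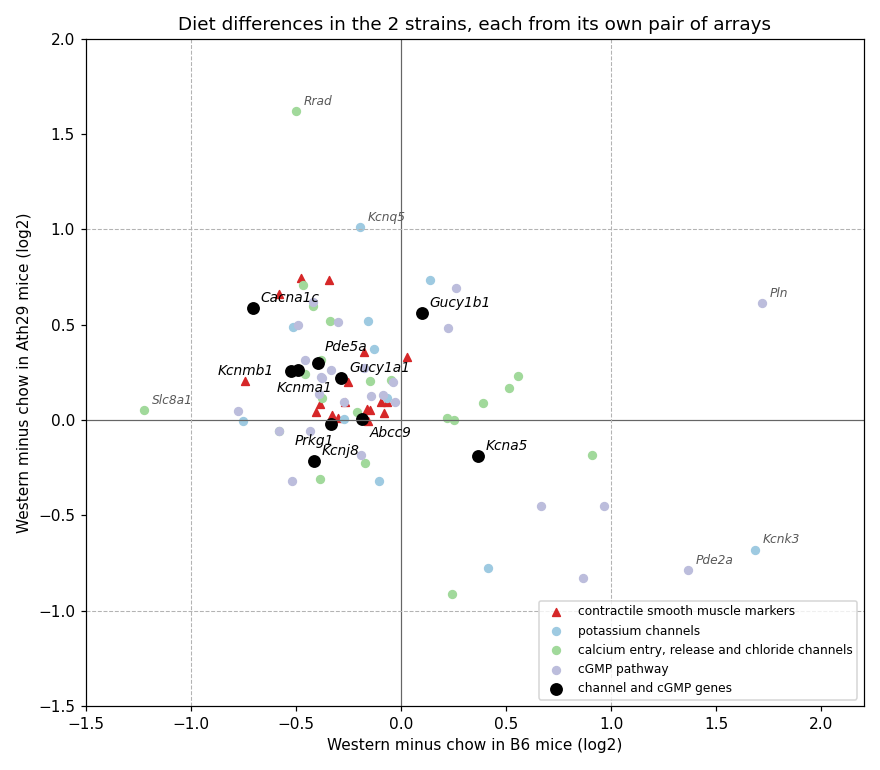
Each point is a gene, placed by its diet difference in B6 mice (horizontal axis, log2) and in Ath29 mice (vertical axis, log2), which use different arrays, with dashed lines at 2-fold. Black points are the 10 channel and cGMP genes, coloured circles the other pathway genes and red triangles the contractile smooth muscle markers. Cacna1c lies at -0.70 and 0.59, Kcna5 at 0.37 and -0.19, and Kcnk3 and Pde2a far to the lower right.

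The genes with a course over the 4 arrays most like that of Kcnmb1 were Nr1d2, Snap23, Rarres1, Zcchc24 and Phtf2, with root mean square distances of 0.02 to 0.03 log2 units over 4 arrays, against a median of 0.31 over 11717 genes. Nr1d2, a nuclear receptor of the circadian clock, read 1019.7 and 728 in B6 and 573 and 688 in Ath29 mice. Snap23, a vesicle fusion protein, read 504 and 363, and 292 and 360.1. Of the other 9 genes Pde5a was the nearest to Kcnmb1, at 0.18, and Kcna5 the farthest, at 0.38. With 4 arrays such closeness is a description only.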

How the data were processed

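The deposited values are 1 linear intensity for each probe set and array, a unit inferred from their range; how the authors summarised and scaled them is not given in the sources used here. Per the labels, 8 ug of RNA went into each labelling. The platform annotation named the probe sets, with symbols updated to RefSeq of GRCm38.p6: of 45101, 34945 had 1 gene, 932 several, 9160 none and 64 were controls. On the log2 scale arrays were brought to 1 median (factors 0.990 to 1.02), values under the 25th percentile (9.59 units) were raised to it, and probe sets with a mean above the median (27.4 units) were kept. The probe set of highest mean stands for a gene. The fit used limma 3.58.1. It was tried on simulated data with additive strain changes and no interaction, which does not show how it performs on these arrays. Other steps used Python 3.11.15. The number of arrays limits precision.

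The 10 genes, the gene lists and the comparisons were chosen with earlier results of these data known. All 10 genes are named, as are the 5 nearest profiles of the gene with the widest span. Pathway genes are up to 4 per list and kind of comparison with the largest smaller difference of 1 sign, and any past 2-fold in both. Markers are the 3 brightest of the contractile smooth muscle and pericyte lists, and the 5 hepatocyte markers that passed. Smooth muscle markers past 2-fold are named too. Irag1 was read as Mrvi1, its older name. Alternatives were 3 scalings, 2 filters, 2 floors, 2 ways to read a gene and thresholds of 1.5-fold and 3-fold. Of the 11 marker lists, those of endothelium (median differences 0.02, -0.06, 0.06 and 0.06 in the order of the comparisons), skeletal muscle (-0.01, -1.08, 0.73 and 0.04), nerve and Schwann cells (0.09, 0.17, -0.16 and -0.07) and hepatocytes (0.51, -0.06, 0.69 and 0.15) are given here only.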

Additional observations from a re-analysis of the deposited data

Results flagged for a closer look

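Cacna1c, the pore of the L-type calcium channel, differed between diets in opposite directions in the 2 strains, by at least 1.5-fold in each as reported: -0.70 in B6 mice and 0.59 in Ath29 mice (log2, Western minus chow). Its second probe set gave -0.78 and 0.19, and with other scalings the Ath29 value was 0.53 to 0.58, under 1.5-fold. With 1 array per group the difference between the strains was not tested. Of all genes, 60.9% had opposite signs between diets in the 2 strains, and the share past 1.5-fold in each was not counted.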

How the results depend on the processing

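Under the 9 alternatives of scaling, filter, floor and probe set choice, the ratios behind the 40 differences of the 10 genes and the list medians moved by less than 1.5-fold. The largest move was that of Gucy1b1 between strains on chow, from -0.62 to -0.17. With no filter, the potassium channel median on Western diet turned from 0.11 to -0.08 and the cGMP median on chow went from -0.25 to -0.03. The median of the 10 genes ranged from -0.28 to -0.18 between strains on chow, 0.13 to 0.26 on Western diet, -0.42 to -0.31 between diets in B6 and 0.16 to 0.24 in Ath29 mice. Over these alternatives, 8 or 9 genes were below 0 on chow, 1 to 3 on Western diet, 8 in B6 and 3 or 4 in Ath29 mice. With the mean of all probe sets, Gucy1b1 turned from -0.15 to 0.12 between strains on Western diet and Gucy1a1 from 0.22 to -0.04 between diets in Ath29 mice. At 1.5-fold 2 of the 10 were lower between strains on chow, 1 higher on Western diet, 1 lower between diets in B6 and 1 higher in Ath29 mice. Counts of all genes higher and lower, in the order strain on chow, strain on Western diet, diet in B6 and diet in Ath29 mice, were 253 and 229, 99 and 238, 482 and 137, 156 and 100 as reported. They were 512 and 447, 347 and 479, 736 and 339, 376 and 357 with no filter, and 109 and 71, 18 and 108, 261 and 36, 45 and 12 with a filter at the 75th percentile. They were 847 and 1134, 657 and 924, 1167 and 835, 707 and 510 at 1.5-fold and 52 and 27, 14 and 53, 149 and 19, 31 and 16 at 3-fold, since a filter or threshold changes how many genes can pass. Of the genes past 2-fold between strains on chow, 52.5% were higher, against 64.6% with a common 75th percentile, 61.2% with quantile normalization, 60.8% with no shift and 44.5% without probe sets for several transcripts. The limma fit called 2 genes for strain with the stricter filter, and 1 for strain and 2 for diet when probe sets able to bind several transcripts were left out; the cause was not tested. No paired analysis was possible because each group has 1 array. Signals near the filter limit the dimmer Kcnma1 probe sets and the dimmest pathway genes.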
